A study of Arabidopsis thaliana with 12 samples.

Results

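The CCX and CAX cation exchangers of Arabidopsis roots were followed gene by gene across 2 natural accessions and 2 nitrogen sources. The family was taken as 9 AGI loci, CCX1 to CCX5 and CAX1 to CAX4, out of 26568 genes listed in the count table. It was chosen by the measured response of CCX1 to NH4+ in both ecotypes, and the other 8 loci were added as its relatives by name. A row was found for 8 of them, and all 8 passed the filter on low counts, CCX1 only through its NH4+ libraries. AT5G01490 (CAX4) was not analysed here. The 4 groups, with 3 biological replicates each, were roots of Or-1, an NH4+-tolerant ecotype, under NH4+ or NO3-, and roots of Rak-2, an NH4+-sensitive ecotype, under NH4+ or NO3-. All plants were first grown hydroponically on NO3- for 5 d and then received 1 mM (NH4)2SO4 or 1 mM Ca(NO3)2 for 1 d. The methods of the study add a nitrogen-free period before the treatment. They state that Ca2+ was set equal in both solutions and that the pH was buffered. Each ecotype is 1 natural accession, so that a difference between Or-1 and Rak-2 is a difference between these accessions and not between tolerant and sensitive plants in general.

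CAX proteins are antiporters that use the proton gradient across the vacuolar membrane to load Ca2+, and in some members Mn2+ or other metals, into the vacuole. CCX proteins belong to another branch of the Ca2+/cation antiporter superfamily and resemble the K+-dependent Na+/Ca2+ exchangers of animals. CCX2 has been placed at the endoplasmic reticulum, CCX3 at the vacuolar membrane and CCX1 has been tied to Ca2+ and reactive oxygen during leaf senescence. CAX1 is the main vacuolar Ca2+/H+ exchanger of leaves, and CAX2 carries Mn2+ and other metals besides Ca2+. CAX3, close to CAX1 in sequence, has been described as the more root-expressed of the pair, which the levels below show only in part. External Ca2+ and proton supply both bear on these carriers, and NH4+ uptake can acidify the medium around a root. This makes the family one to follow when NO3- is replaced by NH4+, although the solutions of this study were pH-buffered.

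Total counts ranged from 16005610 to 22388738 per library. The replicates agreed least in the Rak-2 NO3- group, where the biological coefficient of variation was 0.343, and it lay between 0.158 and 0.241 in the other 3 groups. All 8 root markers (WER, SHR, SCR, PLT1, GL2, COBL9, PHO1 and CASP1) had over 3 counts in every library. Their summed level spanned 805 to 913 CPM in Or-1 NH4+ roots against 1704 to 2178 CPM in Or-1 NO3- roots, and 959 to 1193 CPM in Rak-2 NH4+ roots against 1862 to 2025 CPM in Rak-2 NO3- roots. That gap in the sum was carried by PHO1, a phosphate exporter gene, since the other 7 markers summed to 210 to 265 CPM in Or-1 NH4+ against 244 to 296 CPM in Or-1 NO3-, and to 198 to 231 CPM in Rak-2 NH4+ against 151 to 275 CPM in Rak-2 NO3-, with overlap in both ecotypes. Of these 7, WER was itself lower in Or-1 NH4+, at 3.06, 1.85 and 1.46 CPM against 8.27, 7.07 and 4.10 CPM in Or-1 NO3- (log2 fold change -1.60, adjusted p = 0.0233, edgeR). In Rak-2 the log2 fold change of WER was -0.21 (adjusted p = 0.779, edgeR). The 4 measured shoot markers were detected in every group and summed to between 8.61 and 914 CPM, with libraries far apart within groups. The part of PHO1, of WER and of the shoot markers in the results below was not tested. In whole roots, fewer cells of a type cannot be told apart from less RNA per cell.

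In the TAIR10.1 assembly of the Columbia reference, CCX1 (AT5G17860, which RefSeq calls CAX7) lies on the minus strand at chr5:5902394-5904532. CCX2 (AT5G17850) lies on the plus strand at chr5:5898852-5901157. The genes end towards each other, 1236 bases apart, with no annotated gene between them. Their coding sequences shared 62.0% of aligned bases, within the range of CCX1 with the other members, 59.8% (CCX5) to 64.3% (CAX1). The longest run shared without a mismatch was 15 bases. The windows of 90 coding bases around that run are shown because both genes lie together and only CCX1 was near 0 under NO3-, and capitals mark the 28 bases at which they differ.
CCX1, coding bases 1222 to 1311: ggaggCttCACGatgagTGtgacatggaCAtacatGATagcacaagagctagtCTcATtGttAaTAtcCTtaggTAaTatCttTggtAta
CCX2, coding bases 1198 to 1287: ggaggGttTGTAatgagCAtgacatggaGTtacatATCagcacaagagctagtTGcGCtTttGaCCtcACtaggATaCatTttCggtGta

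CAX3 (AT3G51860) lies at chr3:19239305-19242913 on the plus strand and CAX1 (AT2G38170) at chr2:15989083-15993326 on the minus strand. These were the second closest pair in coding sequence, with 74.9% of aligned bases shared and a longest common run of 41 bases. The window around that run is shown because the fold changes of the pair had opposite signs in Or-1, and capitals mark its 14 mismatches.
CAX3, coding bases 540 to 629: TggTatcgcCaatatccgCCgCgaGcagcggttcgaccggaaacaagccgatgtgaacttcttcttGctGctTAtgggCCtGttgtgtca
CAX1, coding bases 540 to 629: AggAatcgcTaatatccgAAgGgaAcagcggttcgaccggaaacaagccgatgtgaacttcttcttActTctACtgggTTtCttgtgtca

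CCX3 (AT3G14070, chr3:4660944-4663363, minus strand) and CCX4 (AT1G54115, chr1:20201806-20204412, plus strand) were the closest pair, with 81.5% of aligned coding bases shared and a common run of 70 bases. Short reads from such a run cannot be placed on one gene of the pair, and how the counting treated them is not given in the sources used here. The window around the run of 70 bases held 5 mismatches.
CCX3, coding bases 409 to 498: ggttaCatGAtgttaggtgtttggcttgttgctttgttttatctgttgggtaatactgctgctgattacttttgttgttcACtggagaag
CCX4, coding bases 406 to 495: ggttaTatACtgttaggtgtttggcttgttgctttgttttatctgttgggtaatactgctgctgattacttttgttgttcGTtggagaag

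The row listed under CCX3 carries a further limit. Its deposited length was 2907 bases, whereas the annotated CCX3 transcript has 2420 bases. A length of 2907 bases is that of the transcript of AT3G14067, a subtilase gene that lies next to CCX3 on the same strand, overlaps it by 2 bases and has no row of its own in the table. The row may therefore hold reads of AT3G14067, and its level and response cannot be assigned to CCX3 alone. For CCX5 (AT1G08960, chr1:2879506-2882234, plus strand) the deposited length of 2572 bases also differed from the annotated 2190 bases, and its downstream neighbour NF-YC9, 256 bases away, has no row. For the other 6 genes the deposited length equalled the longest annotated transcript, and CAX2 (AT3G13320) was among these, at chr3:4314505-4318487 on the plus strand.

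The promoters of CCX1 and CAX3 are shown because CCX1 was chosen for its NH4+ response and CAX3 was the other member to pass both limits of the test below under NH4+. Each is the 250 bases before the annotated start, and capitals mark matches to a W-box core (TTGAC), a G-box (CACGTG) or a CGCG core (CGCG), searched on both strands. In CCX1 the G-box starts 223 bases and the CGCG core 203 bases before the start. In CAX3 the W-box core stands on the minus strand, 40 bases before the start. Of 25668 promoters of this length, 6.56% held the G-box, 10.09% the CGCG core and 44.9% the W-box core, so that the last is a common match. A W-box core was also found for CCX3 and CCX4, and none of the 3 motifs for CCX2, CCX5, CAX1 or CAX2. A match is a description of the Columbia sequence, and the sequences of Or-1 and Rak-2 were not analysed here.
CCX1, chr5:5904533-5904782, minus strand: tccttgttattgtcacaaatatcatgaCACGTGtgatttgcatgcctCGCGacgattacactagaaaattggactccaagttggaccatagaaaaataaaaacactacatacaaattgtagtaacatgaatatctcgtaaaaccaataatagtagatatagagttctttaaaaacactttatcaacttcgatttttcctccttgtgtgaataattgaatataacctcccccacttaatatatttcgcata
CAX3, chr3:19239055-19239304, plus strand: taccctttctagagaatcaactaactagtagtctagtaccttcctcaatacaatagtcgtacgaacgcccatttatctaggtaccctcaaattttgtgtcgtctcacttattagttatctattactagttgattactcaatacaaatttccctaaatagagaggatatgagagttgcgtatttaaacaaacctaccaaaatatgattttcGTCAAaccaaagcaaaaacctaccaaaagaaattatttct

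Levels between genes were compared as RPKM, the TMM-scaled CPM divided by the deposited gene length in kilobases. The row listed under CCX3 was the highest in all 4 groups, at 61.8 ± 9.16 RPKM in Or-1 NH4+, 41.0 ± 4.28 in Or-1 NO3-, 56.6 ± 4.09 in Rak-2 NH4+ and 39.7 ± 6.66 in Rak-2 NO3- (SD, n = 3 each), with the limit given above. CAX2 came next in every group, with 28.3 ± 1.15 RPKM in Or-1 NH4+, 21.5 ± 1.48 in Or-1 NO3-, 19.3 ± 1.35 in Rak-2 NH4+ and 24.0 ± 6.33 in Rak-2 NO3- (SD, n = 3 each). Below CAX2 the order depended on the group. In Or-1 NH4+ roots CAX3 followed at 20.9 ± 1.42 RPKM and then CCX4 at 14.2 ± 0.883 RPKM, and the ranges of CCX2 (8.23), CCX1 (7.33), CCX5 (5.91) and CAX1 (5.06 RPKM) each overlapped that of the next in order. In Or-1 NO3- roots CCX4 followed CAX2 at 12.005 ± 0.781 RPKM, and CAX1 (8.32), CCX2 (6.21), CAX3 (5.48), CCX5 (4.22) and CCX1 (0.0172 RPKM) came after it, where CAX1 overlapped CCX2 and CCX2 overlapped CAX3.

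In Rak-2 CCX4 followed CAX2 under both nitrogen sources, at 13.6 ± 1.33 RPKM with NH4+ and 13.7 ± 1.06 RPKM with NO3- (SD, n = 3 each). Under NH4+ CCX4 was followed by CCX2 (8.99), CAX1 (7.62), CAX3 (6.11), CCX5 (6.04) and CCX1 (2.91 RPKM), where CAX1 overlapped CAX3 and CAX3 overlapped CCX5. Under NO3- CCX4 was followed by CAX1 (9.46), CCX2 (6.60), CCX5 (4.70), CAX3 (3.26) and CCX1 (0.0570 RPKM), where CAX1 overlapped CCX2 and CCX5 overlapped CAX3. CAX1 and CAX3 were thus the members whose place in the order differed most between the groups, CAX1 being last only in Or-1 NH4+ and CAX3 next after CAX2 only there. In the other groups the mean of CAX1 was above that of CAX3, with overlapping ranges in Or-1 NO3- and Rak-2 NH4+. Over the 6 genes with a matching length, the summed level was 83.9 ± 1.13 RPKM in Or-1 NH4+ and 53.5 ± 3.69 in Or-1 NO3-, and 58.5 ± 5.59 in Rak-2 NH4+ and 57.1 ± 3.78 in Rak-2 NO3- (SD, n = 3 each).

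**Figure D1:**
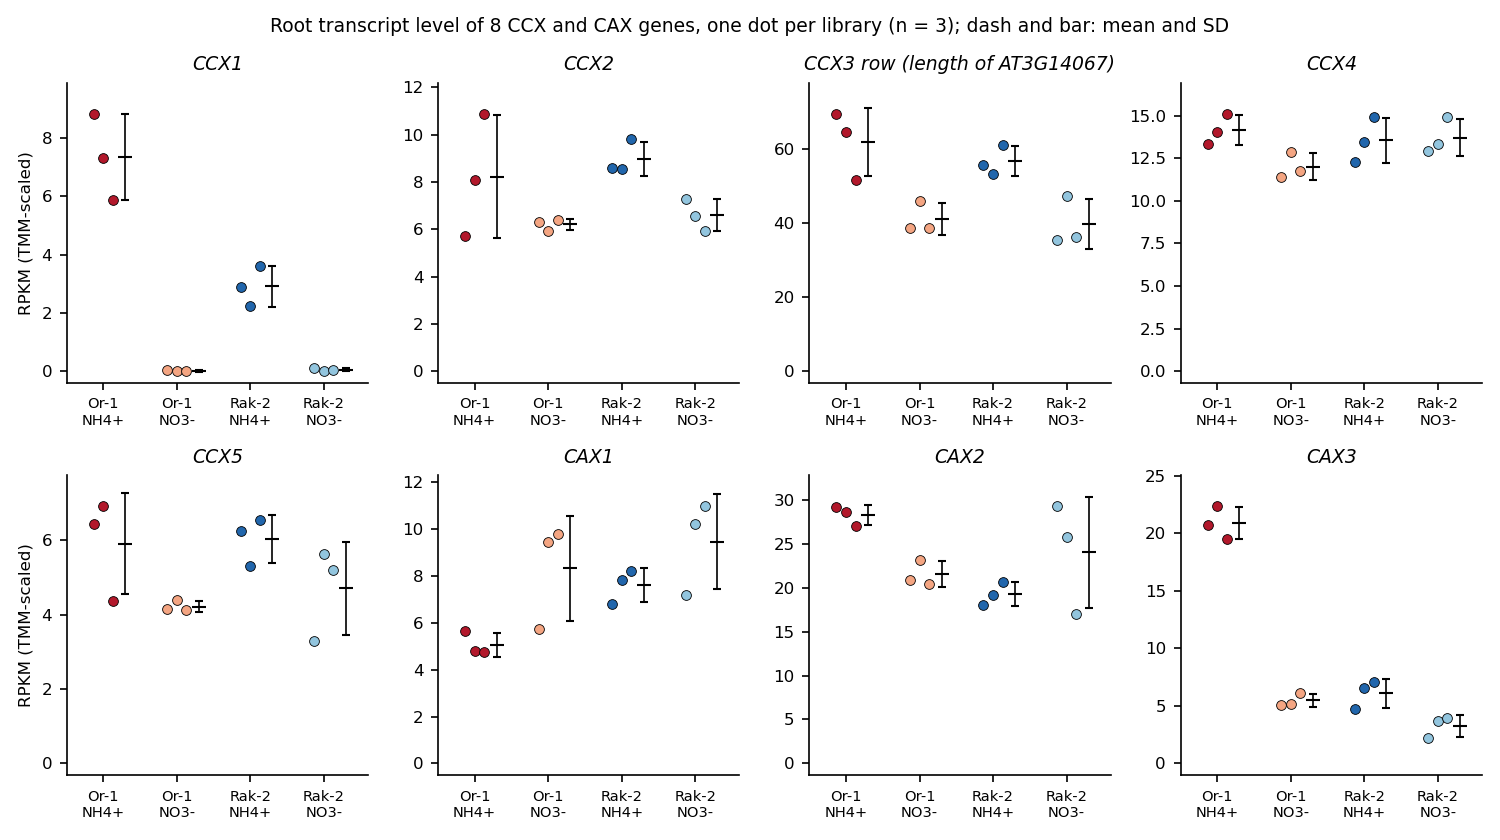
Root transcript level of the 8 measured CCX and CAX genes in RPKM on linear axes, 1 dot per library, with the mean and SD of the 3 libraries beside each group. CCX1 lies between 5.86 and 8.82 RPKM in Or-1 NH4+ and between 2.23 and 3.62 RPKM in Rak-2 NH4+ and near 0 under NO3-, and CAX3 stands at 19.5 to 22.3 RPKM in Or-1 NH4+ alone.

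CCX1 was close to silent under NO3- and clearly transcribed under NH4+ in both ecotypes. It had 388, 305 and 258 counts in Or-1 NH4+ libraries, against 2, 0 and 0 counts in Or-1 NO3- libraries. In Rak-2 it had 123, 91 and 158 counts in NH4+ libraries, against 3, 1 and 2 counts in NO3- libraries. Every NH4+ library of either ecotype was therefore above every NO3- library. CCX1 was chosen for this response, so that the difference is given as a description without a test. Set against a floor of 3 counts in the smallest NO3- library after scaling, even the lowest NH4+ library was at least 75.8-fold higher than NO3- roots for Or-1, and for Rak-2 at least 22.7-fold higher.

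The pattern was looked for over all genes of the table. At most 3 counts in each of the 6 NO3- libraries were recorded for 5733 genes, including 3548 with no count in any library. Of the 5733 genes, 8 had over 3 counts in each of the 6 NH4+ libraries. CCX1 had the highest minimum of the 8, with no NH4+ library under 91 counts. The next were AT2G26695, a zinc finger protein gene, with at least 18 counts, and LSU1, a sulfur deficiency marker, with at least 15. UMAMIT19, an amino acid transporter gene, had 223, 279 and 384 counts in Rak-2 NH4+ but 7, 7 and 27 counts in Or-1 NH4+. RGP4, AT5G16740, AHP4 and 1 gene new to the deposited annotation had minimum counts of 4 to 6. The limit of 3 counts was the floor used above and is also the highest NO3- count of CCX1 itself. The place of CCX1 among the 8 is therefore not independent of its choice, and these genes are a description with no test.

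**Figure D2:**
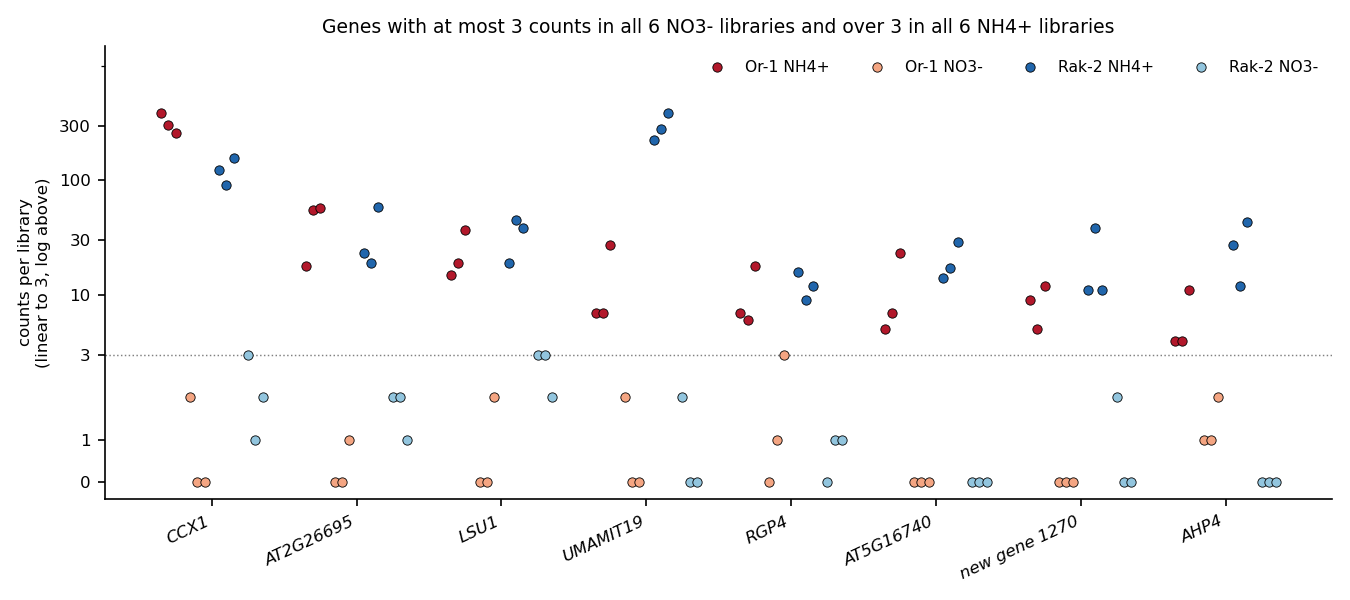
Counts per library of the 8 genes with at most 3 counts in all 6 NO3- libraries and over 3 counts in all 6 NH4+ libraries, on an axis that is linear up to 3 and logarithmic above it. CCX1 is the gene whose lowest NH4+ library, at 91 counts, stands farthest above the dotted line at 3 counts.

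Under NH4+, CCX1 was also higher in Or-1 than in Rak-2. Its level was 8.82, 7.31 and 5.86 RPKM in Or-1 NH4+, against 2.89, 2.23 and 3.62 RPKM in Rak-2 NH4+, with no overlap. The log2 fold change was 1.33 ± 0.36 (SE; 2.52-fold) and passed both limits used throughout, one on the adjusted p (under 0.05) and one on size (log2 fold change beyond 1 either way), with an adjusted p of 0.0214 by edgeR's quasi-likelihood test and Benjamini-Hochberg adjustment. The NH4+ libraries of both ecotypes are among those that singled out CCX1. Neither this p nor that of the difference of response below is therefore independent of the choice of the gene. The call between the ecotypes also rested on few libraries. It was lost when replicate 1 or 2 of Or-1 NH4+ or replicate 1 or 2 of Rak-2 NH4+ was left out, with adjusted p of 0.0695 to 0.0913. The larger NH4+ response of CCX1 in Or-1 was not called as a difference between the ecotypes, and the NO3- counts of 0 to 3 leave it wide (difference of log2 fold changes 2.90, 95% interval 0.60 to 5.20; adjusted p = 0.183, edgeR).

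Among the 7 members other than CCX1, CAX3 had the largest change under NH4+. It had 822, 840 and 774 counts in Or-1 NH4+, against 179, 188 and 268 counts in Or-1 NO3-, so that its level rose 3.80-fold with NH4+ in the tolerant ecotype. The log2 fold change was 1.93 ± 0.22 (SE) with an adjusted p of 0.000166 (edgeR quasi-likelihood test, Benjamini-Hochberg), and all 3 NH4+ libraries were above all 3 NO3- libraries. In Rak-2 it had 180, 241 and 279 counts with NH4+, against 60, 152 and 138 counts with NO3-. The Rak-2 difference was smaller, 1.86-fold or 0.90 ± 0.22 (SE) on the log2 scale, and passed the limit on p (adjusted p = 0.0234, edgeR) but not the limit on size.

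That Rak-2 value lay close to the size limit. It passed both limits when replicate 1 of Rak-2 NH4+ (log2 fold change 1.07), replicate 2 of Rak-2 NO3- (1.00) or replicate 3 of Rak-2 NO3- (1.04) was left out. The limit on p was missed without replicate 2 (adjusted p = 0.0855) or 3 (adjusted p = 0.0778) of Rak-2 NH4+, and when edgeR was fitted to the Rak-2 libraries alone (adjusted p = 0.108). The Or-1 response exceeded the Rak-2 response by 1.03 on the log2 scale (95% interval 0.36 to 1.70), a difference that was not called by edgeR (adjusted p = 0.117). DESeq2, run as an alternative on the same counts, called it with an adjusted p of 0.0244, and edgeR called it without replicate 1 of Rak-2 NO3- (1.23, adjusted p = 0.0468).

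Between the ecotypes under NH4+, CAX3 stood at 20.7, 22.3 and 19.5 RPKM in Or-1 against 4.69, 6.54 and 7.09 RPKM in Rak-2, and the groups did not overlap. This was a 3.42-fold higher level in Or-1 (log2 fold change 1.77 ± 0.22 SE, adjusted p = 0.000169, edgeR), and it was called with each of the 6 NH4+ libraries left out in turn. Under NO3- the level was 5.12, 5.19 and 6.14 RPKM in Or-1 against 2.17, 3.70 and 3.92 RPKM in Rak-2. All Or-1 libraries were again above all Rak-2 libraries, by 0.74 ± 0.22 (SE) on the log2 scale, with an adjusted p of 0.0447 (edgeR) but a fold under the size limit. The limit on p was met in 1 of 6 fits with a library left out (adjusted p of 0.0341 to 0.137), and missed with the NO3- libraries alone (adjusted p = 0.184, edgeR).

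CAX1, the near relative of CAX3, was lower under NH4+ in Or-1. It had 5.65, 4.79 and 4.74 RPKM in Or-1 NH4+, against 5.74, 9.44 and 9.79 RPKM in Or-1 NO3-. The highest NH4+ library and the lowest NO3- library were almost level, and the other NO3- libraries were far above. The log2 fold change was -0.72 ± 0.21 (SE; adjusted p = 0.0429, edgeR), under the size limit, and the p limit was met in 1 of 6 fits with a library left out. In Rak-2 the level was 6.81, 7.82 and 8.22 RPKM with NH4+, against 7.18, 10.2 and 10.98 RPKM with NO3-. These ranges overlapped, and the log2 fold change was -0.31 ± 0.21 (SE; adjusted p = 0.361, edgeR). Under NH4+ all Or-1 libraries were below all Rak-2 libraries (log2 fold change -0.59 ± 0.21 SE, adjusted p = 0.0706, edgeR), which did not pass.

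CAX2, the Mn2+ and Ca2+ carrier, differed in sign between the ecotypes but passed no size limit. It had 29.2, 28.6 and 27.0 RPKM in Or-1 NH4+, against 20.8, 23.2 and 20.5 RPKM in Or-1 NO3-, a log2 fold change of 0.40 ± 0.17 (SE; adjusted p = 0.136, edgeR). In Rak-2 it had 18.0, 19.2 and 20.7 RPKM with NH4+, against 29.2, 25.8 and 17.0 RPKM with NO3-, and the fold change of -0.32 ± 0.17 (SE; adjusted p = 0.233, edgeR) rested on NO3- libraries that lay far apart. Under NH4+ every Or-1 library was above every Rak-2 library, by 0.55 ± 0.17 (SE) on the log2 scale (adjusted p = 0.0342, edgeR), with the size limit not reached. The limit on p was met in 0 of 6 fits with a library left out (adjusted p of 0.0573 to 0.106, edgeR). The difference between the 2 responses was 0.71 (95% interval 0.20 to 1.23; adjusted p = 0.151, edgeR).

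CCX2, the neighbour of CCX1, did not share its pattern. It had 245, 329 and 467 counts in Or-1 NH4+, against 239, 233 and 302 counts in Or-1 NO3-, and in Rak-2 it had 357, 341 and 418 counts with NH4+, against 218, 292 and 226 counts with NO3-. The Or-1 groups overlapped in level and the Rak-2 groups did not, but the log2 fold changes were alike in size, 0.40 ± 0.20 (SE; adjusted p = 0.204) in Or-1 and 0.45 ± 0.20 (SE; adjusted p = 0.164, edgeR) in Rak-2. The 95% intervals reached 0.84 in Or-1 and 0.88 in Rak-2, under a doubling. The difference between the ecotypes under NH4+ was -0.13 ± 0.20 (SE; adjusted p = 0.673, edgeR).

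The row listed under CCX3, with the limit given above, was higher under NH4+ in both ecotypes. It had 69.4, 64.4 and 51.6 RPKM in Or-1 NH4+, against 38.6, 46.0 and 38.6 RPKM in Or-1 NO3-, and 55.7, 53.1 and 61.1 RPKM in Rak-2 NH4+, against 35.4, 47.4 and 36.3 RPKM in Rak-2 NO3-. No groups overlapped in either ecotype. The log2 fold changes of 0.59 ± 0.15 (SE; adjusted p = 0.0203) in Or-1 and 0.51 ± 0.15 (SE; adjusted p = 0.0476, edgeR) in Rak-2 passed the limit on p and not that on size. With a library left out, the limit on p was met in 2 of 6 fits in Or-1 and 1 of 6 in Rak-2.

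CCX4 was the steadiest member. Its level was 13.4 to 15.1 RPKM in Or-1 NH4+ against 11.4 to 12.9 RPKM in Or-1 NO3-, and 12.3 to 14.9 RPKM in Rak-2 NH4+ against 12.9 to 14.9 RPKM in Rak-2 NO3-. The log2 fold changes were 0.24 (95% interval -0.004 to 0.48; adjusted p = 0.177) in Or-1 and -0.02 (-0.26 to 0.23; adjusted p = 0.942, edgeR) in Rak-2, so that a doubling or halving lay outside both intervals. CCX5, tied to K+ transport from its expression in yeast, had 4.37 to 6.92 RPKM in Or-1 NH4+ against 4.12 to 4.38 RPKM in Or-1 NO3-. In Rak-2 it had 5.31 to 6.55 RPKM with NH4+ against 3.28 to 5.64 RPKM with NO3-. Both pairs of groups overlapped, with log2 fold changes of 0.49 ± 0.22 (SE; adjusted p = 0.163) in Or-1 and 0.36 ± 0.22 (SE; adjusted p = 0.309, edgeR) in Rak-2.

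Because CCX1 was chosen for its NH4+ response in both ecotypes, the 2 responses were counted over the other 7 members. In Or-1, CAX3 alone of the 7 was called, and of all 19327 genes tested 8.86% were called there and 5.26% were called higher. In Rak-2 none of the 7 was called by edgeR or DESeq2, against 6.09% of all genes (2.69% higher). At FDR alone, with no limit on size, 3 of the 7 passed in Or-1 (CCX3, CAX1 and CAX3) beside 15.9% of all genes, and 2 in Rak-2 (CCX3 and CAX3) beside 11.9%. In Rak-2 an unadjusted p under 0.05 was found for 3, CCX2, CCX3 and CAX3, beside 28.7% of all genes. The NH4+ and NO3- libraries did not overlap for 5 of 7 in Or-1 and 3 of 7 in Rak-2, beside 36.5% of all genes in Or-1 and 32.1% in Rak-2. The median log2 fold change of the 7 was 0.40 in Or-1 and 0.36 in Rak-2, beside -0.04 and -0.01 over all genes tested.

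Between Or-1 and Rak-2 under NH4+, CCX1 was left out of the counts because its NH4+ libraries led to its choice. Of the other 7 members 1 was called, CAX3, against 12.2% of all genes (6.55% higher in Or-1). With CAX2, 2 of the 7 passed at FDR alone, beside 22.7% of all genes, and 3 had no overlap between the ecotypes, beside 48.8%. Under NO3- CCX1 was left out as well, since at 0 to 3 counts a call was hardly possible. None of the other 7 was called there between the ecotypes by edgeR, against 8.64% of all genes, and DESeq2 called none. CAX3 alone was under an unadjusted p of 0.05, beside 25.1% of all genes, and passed at FDR alone, beside 13.9%. Only CAX3 and CCX4 had no overlap there, beside 26.2% of all genes. No member was called by edgeR for a difference of response, against 1.23% of all genes, or passed at FDR alone, against 1.46%. An unadjusted p under 0.05 was found for 2 of the 7 other than CCX1 (CAX2 and CAX3), beside 18% of all genes, and DESeq2 called CAX3 alone.

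**Figure D3:**
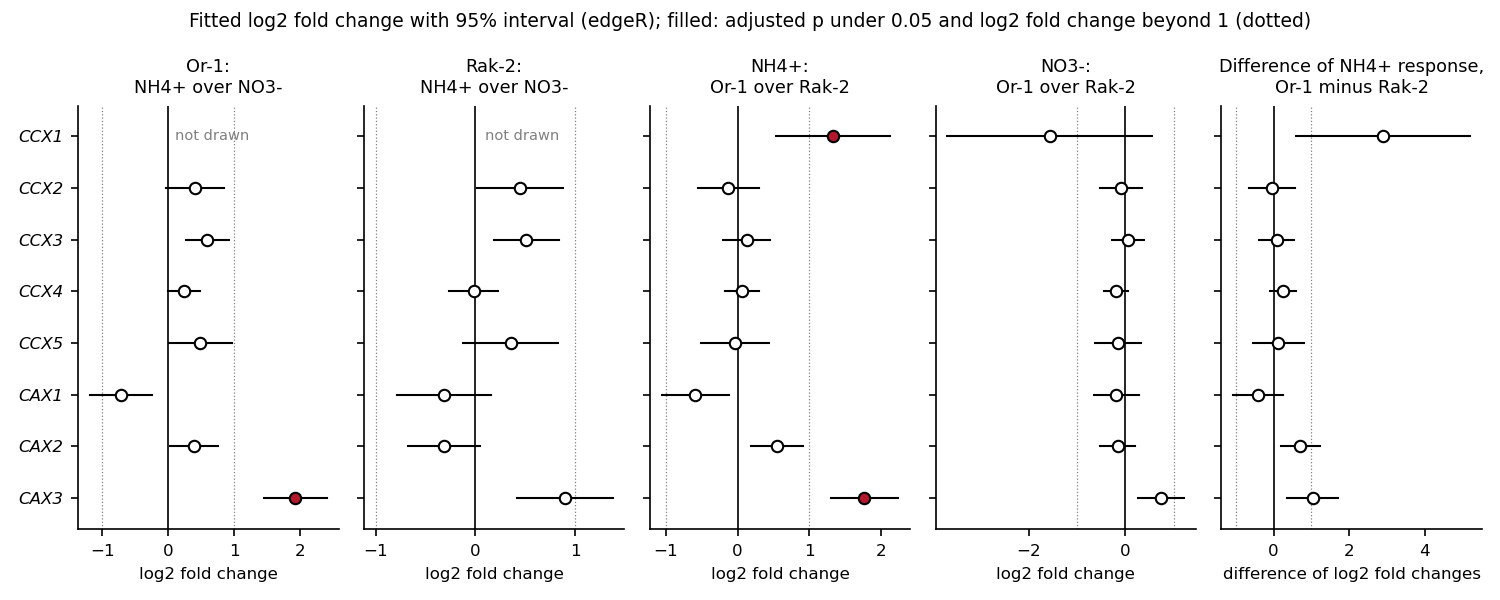
Fitted log2 fold change of each member with its 95% interval in the 5 comparisons, where filled points passed an adjusted p of 0.05 and a log2 fold change beyond 1 (dotted lines). CAX3 is filled at 1.93 in the Or-1 response and 1.77 between the ecotypes under NH4+. CCX1 is filled at 1.33 between the ecotypes under NH4+, where its p is not independent of its choice. CCX1 is not drawn in the first and second panels because it was chosen for them.

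The nearest relatives gave no call. CAX5, CAX6, MHX (a vacuolar Mg2+ and Zn2+/H+ exchanger) and NCL (an Na+/Ca2+ exchanger-like protein) were all tested, and 0 of 4 passed both limits in any of the 5 comparisons by edgeR or DESeq2. At an unadjusted p under 0.05 stood 1 of the 4 in the Or-1 response (MHX), beside 29.3% of all genes, and 1 between the ecotypes under NH4+ (NCL), beside 36.5%. Their median log2 fold change was 0.36 in Or-1 and -0.04 in Rak-2.

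The P-type Ca2+ pumps, which share Ca2+ transport with the CAX exchangers but are driven by ATP, gave some calls. All 14 were tested, and 2 rose and 1 fell in Or-1, beside 8.86% of all genes called, while 1 rose and 1 fell in Rak-2, beside 6.09%. ACA4, a Ca2+ pump of small vacuoles, had 26.4, 14.7 and 12.4 CPM in Or-1 NH4+, against 93.1, 117 and 113 CPM in Or-1 NO3-. In Rak-2 it had 20.8, 15.3 and 19.2 CPM with NH4+, against 121, 128 and 80.4 CPM with NO3-. The log2 fold changes were -2.59 (adjusted p = 0.000117) in Or-1 and -2.57 (adjusted p = 0.000263, edgeR) in Rak-2, and ACA4 was called in every alternative fit. Thus ACA4 and CAX3 moved in opposite directions in Or-1 roots.

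ACA13 and ACA12, plasma membrane pumps, rose. ACA13 had 27.2, 29.9 and 26.4 CPM in Or-1 NH4+, against 3.86, 2.39 and 0.927 CPM in Or-1 NO3-, a log2 fold change of 3.55 ± 0.49 (SE; adjusted p = 0.000642, edgeR). In Rak-2 it had 11.6, 10.4 and 14.3 CPM with NH4+, against 5.16, 2.72 and 1.37 CPM with NO3-, a log2 fold change of 1.99 ± 0.47 (SE; adjusted p = 0.0203, edgeR). That Rak-2 call was lost without replicate 1 or 3 of NH4+ or replicate 2 of NO3-, with adjusted p of 0.0577 to 0.0622. ACA12 had 116, 129 and 150 CPM in Or-1 NH4+ against 42.9, 21.7 and 18.0 CPM in Or-1 NO3-, a log2 fold change of 2.26 ± 0.41 (SE; adjusted p = 0.00324, edgeR), and it was not called in Rak-2.

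Between the ecotypes under NH4+, 13 of the 14 pumps had a fitted level higher in Or-1. Their median log2 fold change was 0.76, beside -0.002 over all genes tested. At FDR alone 8 of the 14 passed, all higher in Or-1, beside 22.7% of all genes. Of these only ECA2, a pump of the endoplasmic reticulum type, passed both limits by edgeR, beside 12.2% of all genes. ECA2 had 60.3, 52.8 and 55.9 CPM in Or-1 NH4+ against 26.6, 27.7 and 27.3 CPM in Rak-2 NH4+ (log2 fold change 1.05 ± 0.17 SE, adjusted p = 0.00132, edgeR). It lay at the size limit and fell under it with upper-quartile scaling (0.97) and without replicate 1 of Or-1 NH4+ (0.999). ACA7 was called between the ecotypes under NO3- on low counts, 56, 24 and 41 in Or-1 against 4, 4 and 0 in Rak-2. That call (adjusted p = 0.0197, edgeR) was lost without replicate 1 of Or-1 NO3- (adjusted p = 0.0593) or replicate 2 of Rak-2 NO3- (adjusted p = 0.0639).

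Of the proton supply and CAX partner genes, 9 of 10 were tested. None of the 9, among them the vacuolar proton pumps AVP1, VHA-A2 and VHA-A3, was called in the response of Or-1 or Rak-2 by edgeR or DESeq2, and an unadjusted p under 0.05 was found for 2 in Or-1, beside 29.3% of all genes, and 4 in Rak-2, beside 28.7%. CXIP1, a glutaredoxin isolated as an interactor of CAX1, was lower in Or-1 under both nitrogen sources. It had 14.2, 15.4 and 16.8 CPM in Or-1 NH4+ against 39.4, 35.5 and 34.6 CPM in Rak-2 NH4+, a log2 fold change of -1.23 ± 0.17 (SE; adjusted p = 0.00044, edgeR). Under NO3- it had 18.0, 25.4 and 31.6 CPM in Or-1 against 48.9, 51.1 and 50.5 CPM in Rak-2, a log2 fold change of -1.004 ± 0.17 (SE; adjusted p = 0.00192, edgeR). The NO3- value lay at the size limit and was under it in 4 of 12 other fits, at -0.80 to -0.9996.

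Of the other vacuolar and secretory cation carriers, 8 of 9 were tested. MTP11, a Mn2+ carrier, rose in Or-1, with 106, 95.3 and 70.2 CPM under NH4+ against 32.1, 31.2 and 35.3 CPM under NO3- (log2 fold change 1.46 ± 0.15 SE, adjusted p = 8.1e-05, edgeR), and none of the others was called in that response. MTP11 was also higher under NH4+ in Rak-2, with 53.7, 47.6 and 45.0 CPM against 31.2, 29.4 and 32.6 CPM under NO3-. That log2 fold change of 0.65 ± 0.14 (SE; adjusted p = 0.0156, edgeR) was under the size limit. The MTP11 responses of the ecotypes were not called as different (difference of log2 fold changes 0.81, adjusted p = 0.0807, edgeR). In Rak-2 none of the 8 passed both limits by edgeR or DESeq2, although 6 had an unadjusted p under 0.05, beside 28.7% of all genes. All 6 also passed at FDR alone, 2 higher and 4 lower under NH4+, beside 11.9% of all genes. MTP3, a vacuolar Zn2+ carrier, was lower in Or-1 under NO3-, at 31.0, 26.5 and 28.6 CPM against 73.5, 69.3 and 41.1 CPM in Rak-2 NO3-. This was a log2 fold change of -1.09 ± 0.18 (SE; adjusted p = 0.00161, edgeR), and -0.95 without replicate 1 of Rak-2 NO3-. The deposited length of the MTP3 row, 3621 bases, differed from the 2059 bases of its longest annotated transcript, so that the row may hold reads of another gene.

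**Figure D4:**
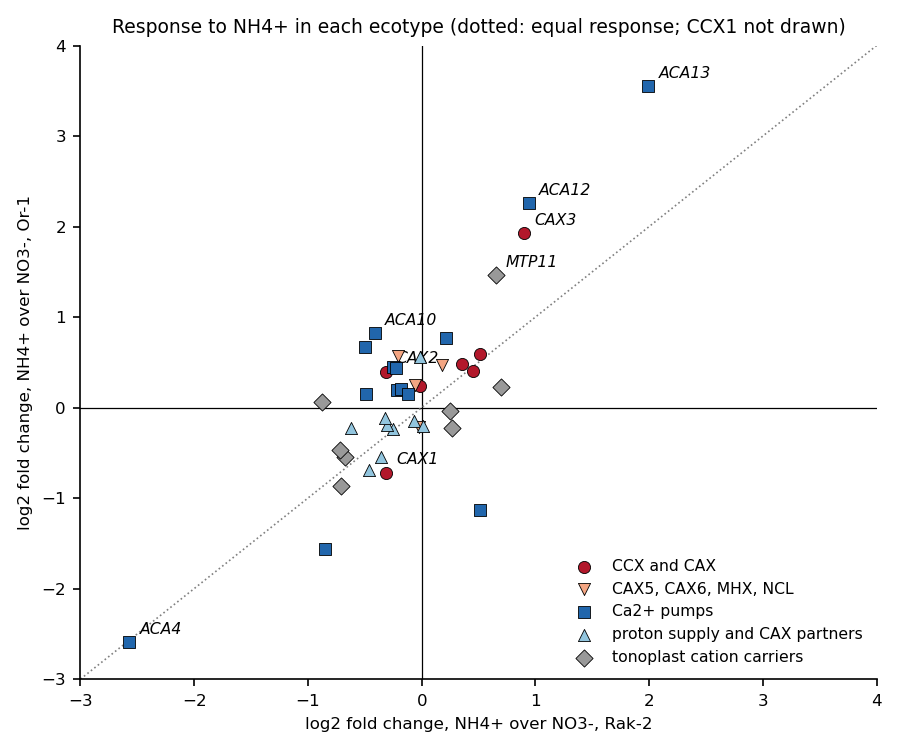
Log2 fold change under NH4+ relative to NO3- in Or-1 (vertical axis) and in Rak-2 (horizontal axis) for the members and 4 lists of related genes, 1 point per gene, with CCX1 not drawn. ACA4 lies near the line of equal response at -2.59 and -2.57, while CAX3, ACA12, ACA13 and MTP11 lie above it, although none of these 4 was called for a difference of response by edgeR.

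The genes whose level followed the members most closely over the 12 libraries were named by Pearson's r on log2 CPM, as a description in which all points share their libraries and the contrast of 2 nitrogen sources. For CCX1 they were NDA2, an alternative NAD(P)H dehydrogenase (r = 0.99), the MATE efflux gene AT1G71140 (0.987), the cupin gene AT1G18980 (0.987), the protein phosphatase 2C gene AT4G32950 (0.985) and OCT1, an organic cation transporter (0.985). OCT1 averaged 47.5 CPM in Or-1 NH4+ and 0.564 CPM in Or-1 NO3-, and 28.7 CPM in Rak-2 NH4+ and 0.567 CPM in Rak-2 NO3-, and thus came close to 0 under NO3- as CCX1 did. For CAX3 they were the nitrilase gene NIT2 (r = 0.974), EXO70G2 (0.96), the kinase gene CRK3 (0.959), AT5G22140 (0.959) and AT4G28940 (0.957). NIT2 averaged 98.7 CPM in Or-1 NH4+ and 16.2 CPM in Or-1 NO3-, and 19.6 CPM in Rak-2 NH4+ and 6.50 CPM in Rak-2 NO3-, an order of the 4 groups in which Or-1 NH4+ alone stood high, as for CAX3. Among the members themselves CCX1 correlated most with the row listed under CCX3 (r = 0.854) and then with CAX3 (0.743). That CCX3 row also correlated with CCX5 (0.825) and CAX3 (0.741). CAX1 had a negative r with every other member, from -0.0627 with CCX4 to -0.694 with CAX3 and -0.703 with CCX1.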

How the data were processed

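Roots of 12 samples were sequenced by the authors from NEBNext Ultra libraries, which do not mark strand, on an Illumina HiSeq. The deposited table holds raw counts per gene and library with a gene length; aligner, counter and genome build are not given in the sources used here, and the deposited length equalled the longest TAIR10.1 transcript for 81.4% of 25670 matched genes. Tables of the authors' own comparisons (expression values, fold changes and p-values) were not used. Counts were filtered with filterByExpr (19327 genes kept), scaled by TMM and fitted with edgeR 4.0.16 (quasi-likelihood F test, 1 coefficient per group, R 4.3.3) over all genes, with Benjamini-Hochberg adjustment. A gene was called at FDR under 0.05 and absolute log2 fold change over 1, as the study defined its genes. RPKM is the TMM-scaled CPM per kilobase of the deposited length. Intervals are 95%, and counting floors of 3 counts cover counting error only. SD and n refer to 3 biological replicates. Named were all members, the 5 genes most correlated with CCX1 and with CAX3, and every list gene called in any comparison. The members, lists and tests were chosen with earlier results of these data known. The fit was tested on simulated data. Alternatives were DESeq2 1.42.0, upper-quartile scaling, no count filter, FDR alone, a 2-group fit, a replicate block and each library left out, and those for list genes were added after seeing the data. Same-numbered libraries deviated together, with r of 0.296 to 0.445 in the Or-1 response and 0.216 to 0.336 between the ecotypes under NH4+. The methods of the study state no pairing or block, and whether the numbers pair the samples is not known. The r was less even in the Rak-2 response (-0.029 to 0.303) and between the ecotypes under NO3- (0.047 to 0.541). The p-values in the Results are from the fit without pairing, and the replicate block is given as an alternative. Sequences, coordinates and gene names are from RefSeq TAIR10.1 (Biopython). For MTP8, VHA-A, RBCS3B and LHCB2.2 no level is given.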

Additional observations from a re-analysis of the deposited data

Results flagged for a closer look

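For ACA10, a Ca2+ pump of the plasma membrane, the NH4+ response differed between the ecotypes by the test of the difference itself. It had 183, 187 and 190 CPM in Or-1 NH4+ against 107, 117 and 93.4 CPM in Or-1 NO3-, and 98.3, 94.4 and 95.4 CPM in Rak-2 NH4+ against 174, 109 and 101 CPM in Rak-2 NO3-. The Or-1 response exceeded the Rak-2 response by 1.23 on the log2 scale (adjusted p = 0.0386, edgeR quasi-likelihood test with Benjamini-Hochberg adjustment). Of the 14 Ca2+ pumps, 8 had an unadjusted p under 0.05 for this difference by edgeR, beside 18% of all genes, and ACA10 alone was called. Leaving out 1 library in turn kept the call in 2 of 12 fits, with values of 0.94 to 1.38 and adjusted p of 0.0111 to 0.111. The deposited length of ACA10, 3973 bases, differed from the 3874 bases of its longest annotated transcript.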

How the results depend on the processing

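The counts of members here include CCX1. It was chosen for both NH4+ responses, and its NH4+ libraries also enter the comparison under NH4+ and the difference of response. With each library left out, the number of members called ranged from 2 to 2 in the Or-1 response, 1 to 2 in the Rak-2 response, 1 to 2 between the ecotypes under NH4+, 0 to 0 between them under NO3- and 0 to 1 for the difference of response. With all libraries, 8.86%, 6.09%, 12.2%, 8.64% and 1.23% of all genes were called in the same order. At FDR alone, 4 members passed in the Or-1 response, beside 15.9% of all genes, and 3 in the Rak-2 response, beside 11.9%. Between the ecotypes 3 passed under NH4+, beside 22.7%, and 1 under NO3-, beside 13.9%. DESeq2 called 1 member, CAX3, for the difference of response. With the replicate block the counts were 2, 1, 2, 0 and 0 in the same order, and no call of a member changed. The block moved the adjusted p (edgeR) of CAX1 between the ecotypes under NH4+ from 0.0706 to 0.0477, still under the size limit. For the CAX3 difference of response it moved from 0.117 to 0.0596. Over all genes the block raised the calls for the difference of response to 398, against 237 without it, and DESeq2 gave 714. Members not called changed sign. With upper-quartile scaling these were CCX4 in Rak-2 (0.0559), CCX4 between the ecotypes under NH4+ (-0.0224) and CCX3 for the difference of response (-0.0306), and without the count filter CCX5 between the ecotypes under NH4+ (0.00063). With a library left out, sign changed within the ranges -0.0923 to 0.0681 for CCX4 in Rak-2, -0.382 to 0.0786 for CCX2 and -0.158 to 0.147 for CCX5 between the ecotypes under NH4+, -0.0411 to 0.184 for CCX3, -0.352 to 0.0360 for CAX1 and -0.357 to 0.00185 for CAX2 between them under NO3-, and -0.297 to 0.163 for CCX2 and -0.0436 to 0.192 for CCX3 for the difference of response. The cause was not tested. CCX1 under NO3-, at 0 to 3 counts, is limited by depth, and the spread of the Rak-2 NO3- libraries limits every comparison that uses them.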
